A study of Mus musculus with 15 samples.

Results

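Genes that mark astrocytes were followed in RNA sequencing counts of the SCN, or suprachiasmatic nuclei, the seat of the master circadian clock in the hypothalamus of mammals. The 10 genes were taken by symbol, Slc1a2, Slc1a3, Slc7a10, Gja1, Gjb6, Aqp4, Gfap, Aldh1l1, Agt and Sox9, out of 24419 genes in the count table, and all 10 were among the 16910 genes abundant enough to be tested. The C57BL/6 mice were 8 to 12 weeks old. They were labelled either as double knockouts (DKO) of both REV-ERB receptors, alpha and beta, which are transcriptional repressors within the molecular clock, or as controls. Tissue was taken at CT16 or CT4, circadian times in the subjective night and the subjective day. There were 4 DKO and 5 control libraries at CT16, and 3 DKO and 3 control libraries at CT4, each made from 2 to 4 pooled punches. The labels name no allele, Cre driver or cell type of the deletion, so whether astrocytes themselves lacked the receptors cannot be read from them.

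Astrocytes clear glutamate and potassium from around neurons, are joined to each other by gap junctions, and cover blood vessels with endfeet. In the SCN they keep circadian time of their own and act on neuronal rhythms through extracellular glutamate. A punch holds many cell types, so a change of all astrocyte genes together has a different reading from a change of one of them, and fewer astrocytes cannot be told apart from less RNA per astrocyte. Each marker was therefore measured on 2 scales. The first was CPM, the count scaled to the size of the library with TMM factors, which sets a gene against all genes. The second set it against a wider panel of 40 other astrocyte genes, none of them among the 10 markers. Changes are log2 fold changes ± standard error, and called means a p under 0.05 in edgeR's quasi-likelihood test after Benjamini-Hochberg adjustment over all 16910 genes.

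The sequences just upstream of the annotated starts of Aldh1l1, Gja1 and Agt, the markers called between genotypes, are shown with that of Gfap, the most variable marker. They are the 250 bases before the start, from RefSeq on GRCm38.p6, read 5′ to 3′ on the gene's strand. Capitals mark AGGTCA, the half-site bound by REV-ERB and ROR receptors, in either orientation. The windows lie at chr6:90550543-90550792 (plus strand) for Aldh1l1, chr10:56377050-56377299 (plus strand) for Gja1, chr8:124569707-124569956 (minus strand) for Agt and chr11:102897201-102897450 (minus strand) for Gfap.
Aldh1l1: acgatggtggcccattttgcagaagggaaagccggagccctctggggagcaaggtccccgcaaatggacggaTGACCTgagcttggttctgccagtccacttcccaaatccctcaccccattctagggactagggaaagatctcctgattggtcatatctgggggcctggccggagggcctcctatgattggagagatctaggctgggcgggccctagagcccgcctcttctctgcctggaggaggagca
Gja1: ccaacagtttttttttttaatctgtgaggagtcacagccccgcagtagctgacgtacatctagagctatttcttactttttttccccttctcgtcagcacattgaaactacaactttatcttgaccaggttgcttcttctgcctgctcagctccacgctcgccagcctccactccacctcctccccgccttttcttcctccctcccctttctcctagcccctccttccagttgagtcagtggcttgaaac
Agt: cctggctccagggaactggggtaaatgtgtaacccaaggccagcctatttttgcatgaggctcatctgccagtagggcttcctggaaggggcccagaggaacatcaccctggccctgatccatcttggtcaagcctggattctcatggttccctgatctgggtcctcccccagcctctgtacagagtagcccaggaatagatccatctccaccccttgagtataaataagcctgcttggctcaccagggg
Gfap: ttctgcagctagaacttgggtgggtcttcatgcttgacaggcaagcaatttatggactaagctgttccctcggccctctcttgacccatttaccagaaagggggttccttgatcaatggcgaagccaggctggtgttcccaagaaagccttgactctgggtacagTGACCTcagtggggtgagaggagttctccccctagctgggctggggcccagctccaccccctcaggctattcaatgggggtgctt
The half-site was present in the windows of Aldh1l1, at -178, and Gfap, at -85, both as TGACCT, which is AGGTCA on the other strand. It was found in 2 of the 8 markers with a window and in 14% of all 32851 promoter windows. An E-box CACGTG (6.02% of all windows), a D-box TTATGTAA (0.819%) and a SOX site AACAATGG (0.901%) were in 0 of the 8 marker windows. A match is only a match of letters.

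The deepest library, DKO CT16 replicate 3, had 68757624 counts and the shallowest, control CT16 replicate 1, had 32580803. The 10 markers took 0.310% to 0.374% of all counts at CT16 in DKO and 0.305% to 0.391% in control, and at CT4 0.344% to 0.349% in DKO and 0.368% to 0.382% in control. The SCN markers Vip and Avp were present in all groups, with mean levels of 24.9 to 87.1 CPM and 246 to 468 CPM. Counts of the targeted genes did not fall in DKO, where Nr1d2 was higher by 1.07 ± 0.07 at CT16 (edgeR, adjusted p = 2.79e-07), so they do not check the genotype labels. Libraries differed in tissue. The score of 15 oligodendrocyte and myelin genes, the median of their centred log2 CPM, spanned -0.70 to 1.64 in DKO and -1.04 to 0.54 in control at CT16, and 0.08 to 0.22 in DKO and -0.12 to 0.40 in control at CT4. DKO CT16 replicate 4 held the highest myelin score, and the summed CPM of these genes was 4141 to 21303 in DKO and 3118 to 10263 in control at CT16. At CT4 the median change of 16 SCN identity genes in DKO was -0.88 and that of 19 genes of neighbouring nuclei 0.89, with none of them called. The summed CPM of the neighbouring nuclei list was 821 to 933 in DKO and 447 to 791 in control at CT4. At CT16 it was 430 to 772 in DKO and 712 to 974 in control. The median change in DKO at CT16 was -0.603 for neighbouring nuclei, 0.195 for SCN identity and 0.801 for myelin genes. Of these lists, 2 SCN identity genes were called there, both higher, and 0 of the others, against 4.66% of all genes.

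Per kilobase of exonic length, Slc1a3 had the highest mean of the markers, 214 CPM per kilobase on average over the 15 libraries. Agt followed with 203 CPM per kilobase, then Slc1a2 with 95.1, Gja1 with 93.5, Gfap with 86.5, Gjb6 with 47.6, Slc7a10 with 28.2, Aqp4 with 22.1, Aldh1l1 with 21.9 and Sox9 with 9.87 CPM per kilobase. The steps from Agt to Slc1a2, from Gjb6 to Slc7a10 and from Aldh1l1 to Sox9 held in all 15 libraries. Slc1a3 lay above Agt in 11 of them. Group means put Agt above Slc1a3 in DKO, at 229 against 214 CPM per kilobase at CT16 and 221 against 204 at CT4, and below it in control, at 174 against 214 and 201 against 225. Slc1a2 lay above Gja1 in 8 of the 15, and Aqp4 above Aldh1l1 in 8, so neither pair has a fixed order. Across libraries the markers ranged very unevenly. The highest CPM of Gfap was 4.53 times its lowest, that of Aqp4 2.17 times, and that of Slc1a3 1.26 times.

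**Figure D1:**
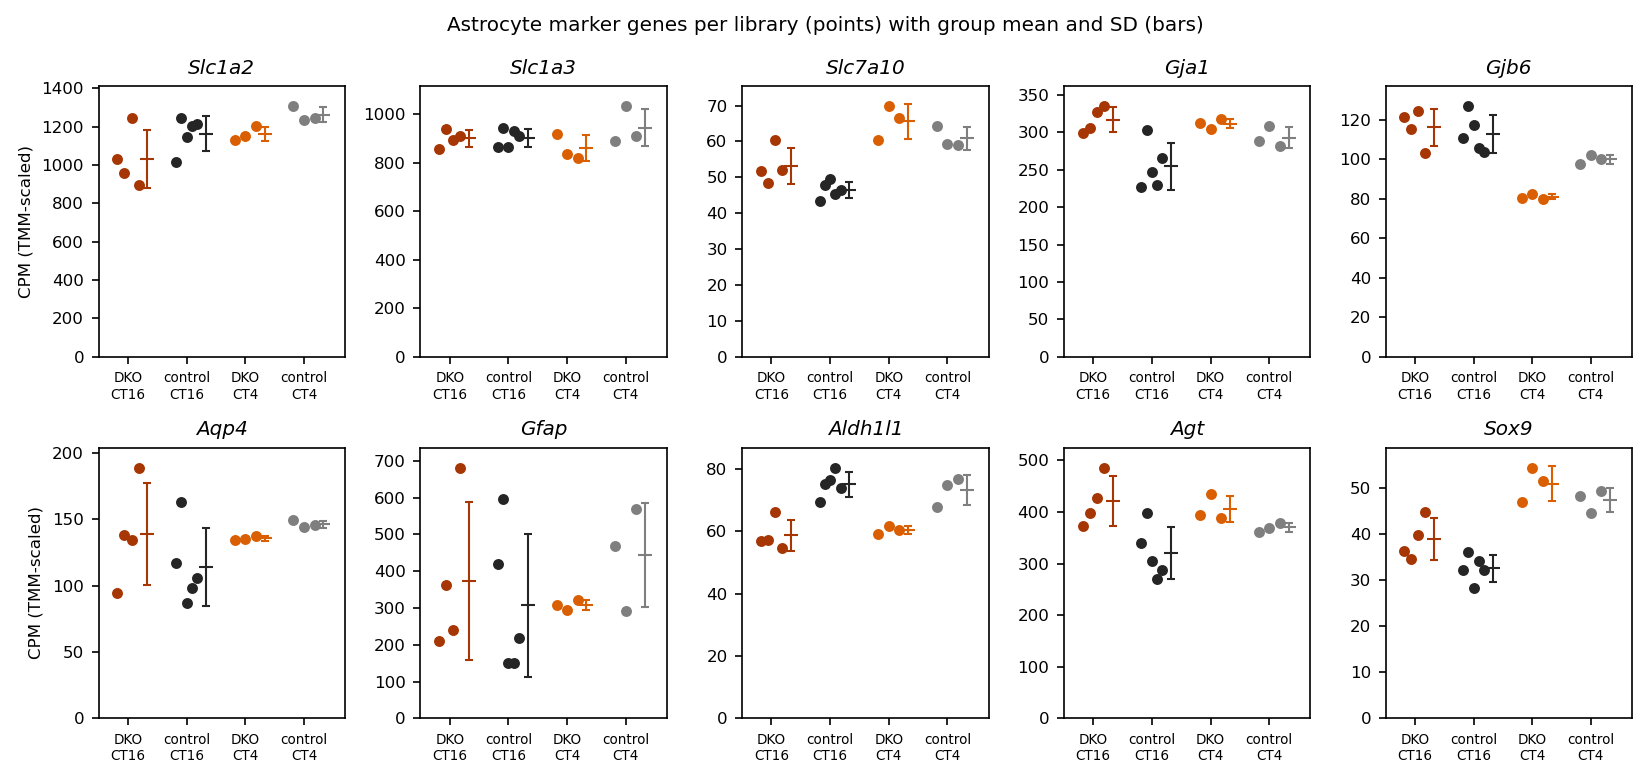
CPM of each marker in every library (points) with the group mean and SD (bars), DKO and control at CT16 and at CT4. Aldh1l1 lies lower in every DKO library than in any control library of the same time, while the libraries of Gfap at CT16 spread from 150 to 681 CPM.

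Neither glutamate transporter gene was called between groups. Slc1a3 encodes GLAST (EAAT1), which takes up glutamate at astrocyte membranes, and lies on chromosome 15 (8634124 to 8710807, minus strand, mm10). Its CPM at CT16 was 855, 938, 895 and 912 in DKO and 864, 942, 865, 929 and 912 in control, and at CT4 920, 837 and 819 in DKO and 890, 1033 and 911 in control. The groups overlapped at both times. The difference between genotypes at CT16 was -0.003 ± 0.05 with a 95% interval of -0.12 to 0.11, the narrowest of the 10 markers, and at CT4 it was -0.14 ± 0.07 (edgeR, adjusted p = 0.339). Slc1a2, on chromosome 2 (102658683 to 102790784, plus strand), encodes GLT-1 (EAAT2), the main glutamate transporter of the forebrain. It stood at 1029, 957, 1243 and 895 CPM in DKO and 1015, 1243, 1145, 1204 and 1211 CPM in control at CT16. At CT4 it stood at 1132, 1152 and 1203 CPM in DKO and 1307, 1235 and 1247 CPM in control. The DKO libraries at CT4 all lay below all control libraries, yet neither difference was called, at -0.17 ± 0.08 at CT16 (adjusted p = 0.234) and -0.12 ± 0.10 at CT4 (adjusted p = 0.609). Without DKO CT16 replicate 3, the highest of its group, Slc1a2 was called at CT16 between genotypes (-0.28, adjusted p = 0.0186) and in DKO between times (-0.28, adjusted p = 0.0273). An antisense gene overlaps 1.57% of its exonic length.

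Slc7a10, which encodes Asc-1, a carrier of glycine and D-serine, differed between times. It lies on chromosome 7 (35186385 to 35201111, plus strand). In DKO it stood at 51.7, 48.6, 60.5 and 52.0 CPM at CT16, against 60.4, 69.9 and 66.7 CPM at CT4. In control it stood at 43.4, 47.8, 49.4, 45.5 and 46.4 CPM at CT16, against 64.5, 59.2 and 59.0 CPM at CT4. The control libraries of the 2 times did not overlap, while in DKO 1 CT16 library reached the lowest CT4 library. Slc7a10 fell by 0.30 ± 0.07 at CT16 in DKO (edgeR, adjusted p = 0.0432) and by 0.39 ± 0.07 in control (adjusted p = 0.00526). The control call was lost only with the panel score as a covariate (-0.34, adjusted p = 0.101), of 28 alternatives. The DKO call was lost in 13 of 28 alternatives, 10 of which left out a single library: DKO CT4 replicate 2 or 3, control CT4 replicate 2 or 3, DKO CT16 replicate 1, 2 or 4, or control CT16 replicate 3, 4 or 5. Between genotypes it was not called, at 0.19 ± 0.06 at CT16 (adjusted p = 0.0988) and 0.11 ± 0.08 at CT4 (adjusted p = 0.554). The opposite-strand gene Lrp3 overlaps 19.2% of the exonic length of Slc7a10, and the strand setting of the counts is not given in the sources used here. Lrp3 itself stood at -0.12 ± 0.08 between the times in DKO and at 0.01 ± 0.08 in control, neither called.

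Of the connexin genes, Gja1 was called between genotypes and Gjb6 between times. Gja1 encodes connexin 43, the main gap junction protein of astrocytes, and lies on chromosome 10 (56377300 to 56390419, plus strand). At CT16 it stood at 299, 306, 328 and 335 CPM in DKO and 227, 303, 247, 230 and 266 CPM in control. At CT4 it stood at 313, 305 and 318 CPM in DKO and 288, 308 and 281 CPM in control. DKO libraries were higher at CT16 except for 1 control library above the lowest DKO library, and the groups overlapped at CT4. Gja1 rose by 0.32 ± 0.07 in DKO at CT16 (edgeR, adjusted p = 0.0157) and was not called at CT4, at 0.09 ± 0.09 (adjusted p = 0.678). Without DKO CT16 replicate 4, the library with the highest myelin score, the value was 0.29 and the call was lost (adjusted p = 0.0521). It was also lost without the 3 libraries that stood apart in tissue markers (0.25, adjusted p = 0.200). Between times Gja1 was not called, but without control CT16 replicate 2 the control difference was -0.27 and was called (adjusted p = 0.0187).

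Gjb6 encodes connexin 30, a gap junction protein of grey matter astrocytes, and lies on chromosome 14 (57123301 to 57133611, minus strand). In DKO it stood at 122, 115, 124 and 103 CPM at CT16, against 80.5, 82.3 and 79.9 CPM at CT4. In control it stood at 110, 127, 117, 106 and 104 CPM at CT16, against 97.5, 102 and 100.2 CPM at CT4. Every CT16 library lay above every CT4 library in both genotypes. Gjb6 rose by 0.52 ± 0.07 at CT16 in DKO (edgeR, adjusted p = 0.00103), a call kept in all 28 alternatives with values of 0.49 to 0.57. In control the time difference was 0.18 ± 0.07 (adjusted p = 0.153). The 3 DKO libraries at CT4 lay below the 3 control libraries, a difference of -0.30 ± 0.07 that was not called (adjusted p = 0.0578) but passed in 9 alternatives, 3 of them the removal of DKO CT16 replicate 3 or 4 or of control CT16 replicate 2 (adjusted p = 0.0283 to 0.0422). At CT16 the genotypes overlapped, at 0.04 ± 0.06 with a 95% interval of -0.09 to 0.18. The difference between the time changes of the genotypes was 0.35 ± 0.10 and was not called (adjusted p = 0.145).

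The filament and endfoot genes varied most between libraries of the same group at CT16. Gfap encodes the intermediate filament of astrocytes, known for its high level in white matter and reactive astrocytes, and lies on chromosome 11 (102887336 to 102897200, minus strand). At CT16 it stood at 209, 363, 240 and 681 CPM in DKO and 420, 595, 150, 150 and 218 CPM in control. At CT4 it stood at 307, 294 and 323 CPM in DKO and 469, 292 and 570 CPM in control. High and low libraries occurred in both genotypes. Its genotype differences were 0.28 ± 0.47 at CT16 with a 95% interval of -0.75 to 1.32, and -0.53 ± 0.58 at CT4, neither called in edgeR (adjusted p = 0.780 and 0.731). Aqp4, on chromosome 18 (15389394 to 15410982, minus strand), encodes the water channel of perivascular endfeet. It stood at 94.7, 138, 134 and 189 CPM in DKO and 117, 163, 87.0, 97.8 and 106 CPM in control at CT16. At CT4 it stood at 134, 135 and 137 CPM in DKO and 149, 144 and 146 CPM in control. At CT4 the libraries of each group lay close together. The groups overlapped at CT16 and did not at CT4, and neither difference was called, at 0.28 ± 0.19 (adjusted p = 0.439) and -0.11 ± 0.24 (adjusted p = 0.881). The fit estimates the spread of each gene from all 4 groups together, so the CT4 standard errors also carry the spread at CT16. The SD of Aqp4 was 38.6 CPM in DKO and 29.4 CPM in control at CT16, against 1.6 and 2.7 CPM at CT4. That of Gfap was 216 and 195 CPM at CT16, against 14.4 and 141 CPM at CT4.

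Gfap and Aqp4 followed the myelin score of the library. In a fit with the group means and the myelin score together, Gfap was higher by 0.88 ± 0.11 per log2 unit of the score (edgeR, adjusted p = 0.000335), Aqp4 by 0.34 ± 0.06 (adjusted p = 0.00271) and Agt by 0.17 ± 0.04 (adjusted p = 0.00385). Of the 10 markers these 3 had a called slope, and 15.1% of all tested genes did. Leaving out each library in turn gave slopes of 0.79 to 0.99 for Gfap and 0.13 to 0.21 for Agt, called in all 15 cases. The slope of Aqp4 was 0.28 to 0.40 and was not called without DKO CT16 replicate 4 (0.34, adjusted p = 0.0535). Slc1a3 had a slope of 0.01 ± 0.03, Gja1 of 0.05 ± 0.04 and Aldh1l1 of -0.06 ± 0.03, none of them called. The lowest slope was that of Slc1a2, at -0.10 ± 0.04 (adjusted p = 0.0968), which was called without control CT16 replicate 2 (-0.15, adjusted p = 0.00712). No marker had a called slope on the score of neighbouring nuclei or on that of ependyma and tanycytes, where 0.195% and 0.355% of genes did. With the myelin score in the fit, the genotype difference of Gfap was -0.23 at CT16 and -0.48 at CT4, again not called (adjusted p = 0.616 and 0.286). Pooled over the 4 groups, the SD of log2 CPM within a group was 0.71 for Gfap, 0.30 for Aqp4 and 0.16 for Agt, and between 0.08 and 0.13 for the other 7 markers.

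**Figure D2:**
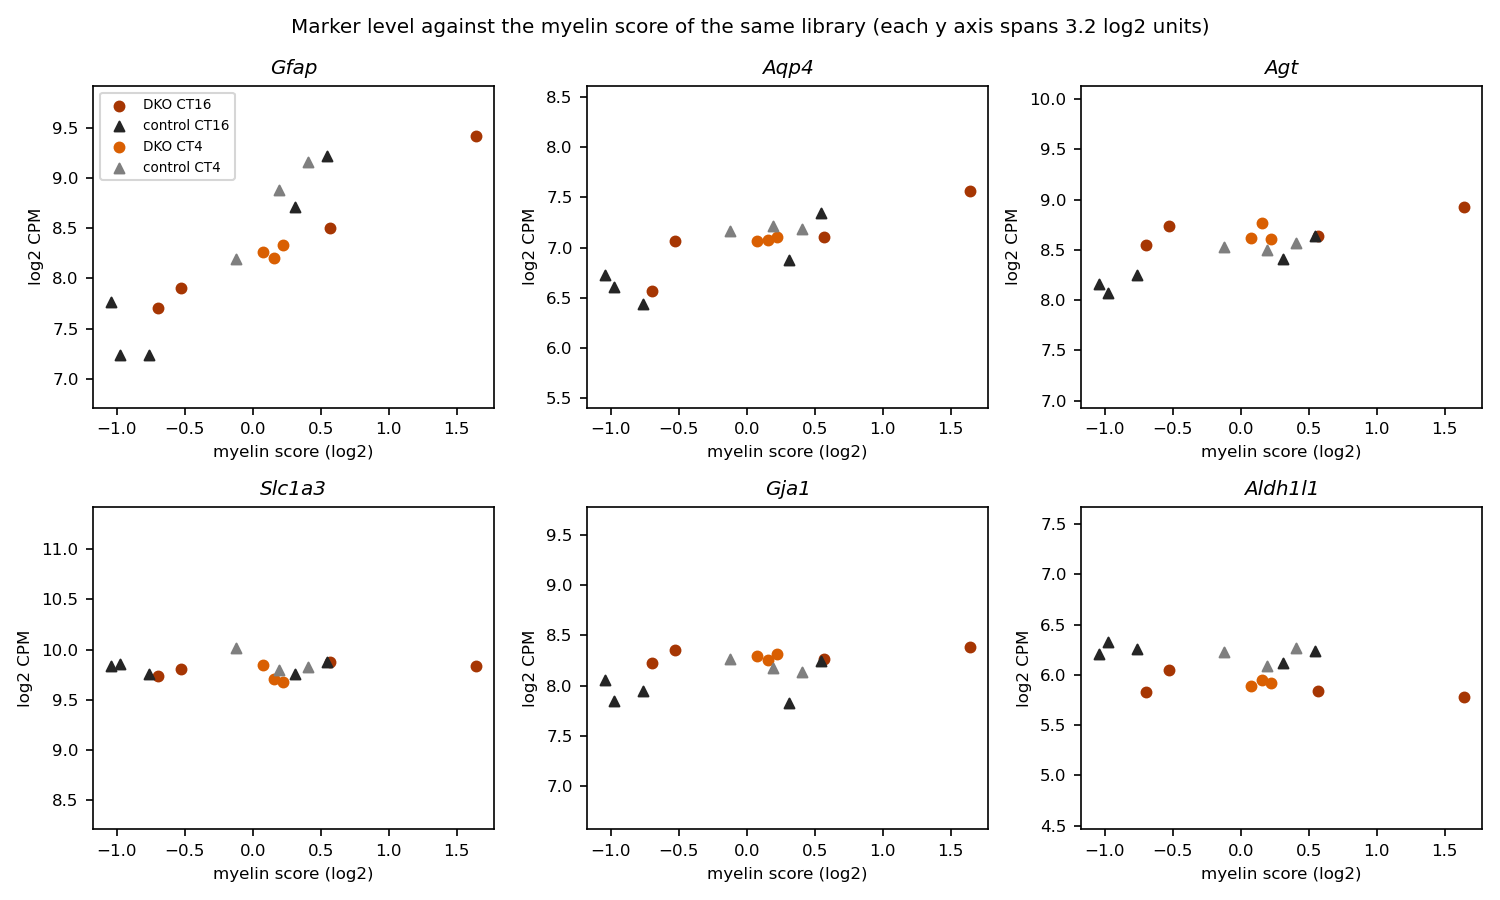
Log2 CPM of 6 markers (y axes, each spanning the same 3.2 log2 units) against the myelin score of the same library (x axes, log2), with circles for DKO and triangles for control libraries. Gfap climbs with the score by 0.88 per unit, Aqp4 by 0.34 and Agt by 0.17, while Slc1a3 stays flat.

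Aldh1l1 had the smallest adjusted p of the 10 markers between genotypes at CT16. It encodes a folate enzyme, cytosolic 10-formyltetrahydrofolate dehydrogenase, widely used to label astrocytes, and lies on chromosome 6 (90550848 to 90599171, plus strand). At CT16 it stood at 56.8, 57.2, 66.1 and 54.8 CPM in DKO and 69.5, 75.3, 76.4, 80.5 and 73.9 CPM in control. At CT4 it stood at 59.2, 61.6 and 60.4 CPM in DKO and 67.7, 75.0 and 76.7 CPM in control. Every DKO library lay below every control library at each time. Aldh1l1 fell by 0.35 ± 0.06 at CT16, which is 21.8% lower (edgeR, adjusted p = 0.00166), and the call was kept in all 28 alternatives with values of -0.42 to -0.32. At CT4 the difference was -0.28 ± 0.07 and was not called (adjusted p = 0.0695). It was called at CT4 in 7 alternatives, among them DESeq2 (adjusted p = 0.0269) and limma voom (adjusted p = 0.0117), and the removal of DKO CT16 replicate 3 or 4 (adjusted p = 0.0291 and 0.0496). Between times it was not called, at -0.04 ± 0.07 in DKO and 0.04 ± 0.06 in control. An antisense gene overlaps 3.44% of its exonic length, and the half-site at -178 is the one capitalised above.

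Agt encodes angiotensinogen, the precursor of the angiotensins, which astrocytes make in the brain, and lies on chromosome 8 (124556587 to 124569707, minus strand). At CT16 it stood at 374, 397, 428 and 486 CPM in DKO and 339, 397, 305, 269 and 287 CPM in control. At CT4 it stood at 394, 435 and 389 CPM in DKO and 362, 369 and 379 CPM in control. The genotypes overlapped at CT16, where 1 control library reached the DKO range, and did not overlap at CT4. Agt rose by 0.40 ± 0.10 in DKO at CT16 (edgeR, adjusted p = 0.0324) and stood at 0.13 ± 0.12 at CT4 (adjusted p = 0.660). The CT16 call was lost in 11 of 28 alternatives, including the single removal of DKO CT16 replicate 2, 3 or 4 or of control CT16 replicate 3, 4 or 5 (adjusted p = 0.0570 to 0.126). With the myelin score in the fit it stood at 0.29 and was called (adjusted p = 0.0129). With the neighbouring nuclei score, the panel score or a replicate block in the fit, the call was lost.

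Sox9 encodes a transcription factor of astrocytes and their progenitors, and lies on chromosome 11 (112782210 to 112787757, plus strand). In DKO it stood at 36.2, 34.6, 39.8 and 44.9 CPM at CT16, against 47.0, 54.5 and 51.6 CPM at CT4. In control it stood at 32.2, 36.1, 28.3, 34.3 and 32.1 CPM at CT16, against 48.2, 44.5 and 49.5 CPM at CT4. Every CT16 library lay below every CT4 library of the same genotype. Sox9 fell by 0.39 ± 0.09 at CT16 in DKO (edgeR, adjusted p = 0.0360) and by 0.54 ± 0.09 in control (adjusted p = 0.00251). The control call was lost only with the panel score as a covariate (-0.37, adjusted p = 0.0713), of 28 alternatives. The DKO call was lost in 8 of 28 alternatives, 6 of which left out 1 library: DKO CT4 replicate 2 or 3, control CT4 replicate 3, DKO CT16 replicate 1 or 2, or control CT16 replicate 1. The genotype differences were 0.25 ± 0.08 at CT16 (adjusted p = 0.0865) and 0.11 ± 0.10 at CT4 (adjusted p = 0.663), neither called, with the CT16 difference called without control CT16 replicate 2 (0.29, adjusted p = 0.0450).

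Counted over the 10 markers on the CPM scale, 2 rose, 1 fell and 7 did not pass between genotypes at CT16, where 4.66% of all 16910 genes were called, 2.83% higher and 1.83% lower. At CT4 0 were called (edgeR), against 1.28% of all genes (0.574% higher, 0.710% lower), with 2 at an unadjusted p under 0.05. DESeq2 and limma voom each called 2 there, among 584 and 822 called genes in all. Between times, 1 rose and 2 fell in DKO, where 1.80% of all genes were called, 1.29% higher and 0.509% lower. In control 0 rose and 2 fell, where 4.21% of all genes were called, 2.13% higher and 2.08% lower. The markers not called between times lay between -0.17 ± 0.09 for Slc1a2 and 0.28 ± 0.54 for Gfap in DKO, and between -0.53 ± 0.51 for Gfap and 0.18 ± 0.07 for Gjb6 in control. The genotype-by-time term called 0 markers (edgeR), against 0.0118% of all genes. For this term limma voom called 1 marker, Gjb6, among 420 called genes in all. Groups did not overlap for 1 marker between genotypes at CT16 and 5 at CT4, where 6.97% and 25.4% of all genes showed no overlap. Between times this held for 2 markers in DKO and 3 in control, against 14.7% and 15.8% of all genes.

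The wider astrocyte panel overlapped between the genotypes at CT16, and most control libraries held less of it at CT16 than at CT4. Its factor, the median ratio of its 40 genes relative to the TMM-scaled library size, averaged 1.01 ± 0.05 in DKO and 0.954 ± 0.053 in control at CT16 (SD, n = 4 and 5), and 1.03 ± 0.03 in DKO and 1.04 ± 0.03 in control at CT4 (SD, n = 3 each). The 4 DKO libraries at CT16 spanned 0.938 to 1.05 and the 5 control libraries 0.912 to 1.04, which overlap. At CT4 the DKO libraries spanned 1.01 to 1.06 and the control libraries 1.01 to 1.07. All control CT16 libraries except replicate 2, which stood at 1.04, lay below all control CT4 libraries. Of the 40 panel genes, 10 did not overlap between genotypes at CT16 and 17 at CT4, and 10 did not overlap between times in DKO and 20 in control, where the shares over all genes were 6.97%, 25.4%, 14.7% and 15.8% in the same order. The median change of the panel between genotypes was 0.08 at CT16 and -0.01 at CT4, against 0.22 and -0.12 for the 10 markers and 0.002 and -0.002 for all genes. Between times it was -0.03 in DKO and -0.18 in control, against 0.03 and -0.21 for the markers and 0.008 and -0.006 for all genes. In control at CT16 against CT4 the panel and the markers thus both had medians below that of all genes. With the panel as a library factor, the median of all genes was 0.12 in that comparison and -0.08 between genotypes at CT16. Changes on this scale are therefore relative to other astrocyte genes only.

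**Figure D3:**
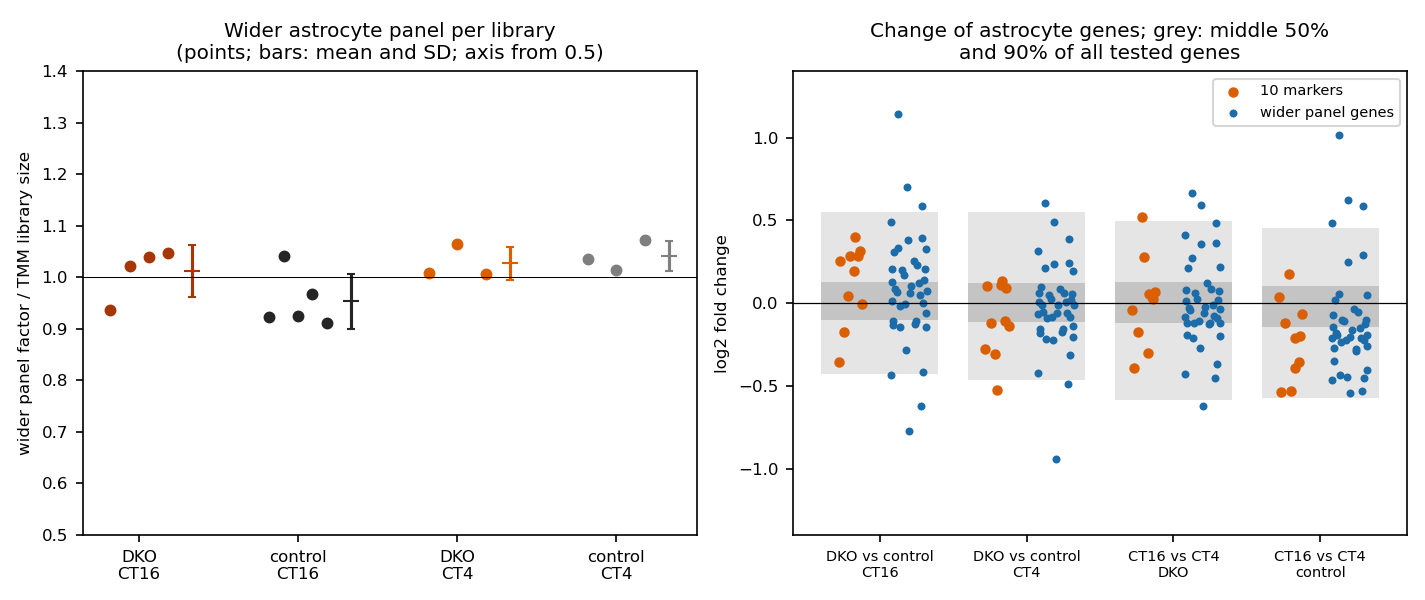
Left, the factor of the 40-gene astrocyte panel relative to the TMM-scaled library size for every library (points), with the group mean and SD. Right, log2 fold changes of the 10 markers and the 40 panel genes in each comparison, over grey bars for the middle 50% and 90% of all tested genes, with the control time comparison lying lowest at medians of -0.21 and -0.18.

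Relative to the panel, Aldh1l1 fell by 0.44 ± 0.07 in DKO at CT16 (edgeR, adjusted p = 0.000634), and the call was kept in all 22 alternatives of this scale. Agt rose by 0.31 ± 0.08 (adjusted p = 0.0379), a call lost in 14 of 22 and by the removal of any 1 library other than control CT4 replicate 1, DKO CT16 replicate 1 or control CT16 replicate 1 or 2. Gja1 was no longer called, at 0.23 ± 0.07 (adjusted p = 0.0785). Gja1 passed in 3 of 22 alternatives, among them DESeq2 with the panel factors, which called 1086 genes in all, against 639 in the main fit. Without control CT16 replicate 2, Gja1 stood at 0.27 and was called (adjusted p = 0.0247). With the panel reduced to its 21 genes called in none of the comparisons, Gja1 stood at 0.30 and was called (adjusted p = 0.0363). Those 21 genes were picked by the same tests on the same libraries, so that call is no independent check. Slc1a2 stood at -0.26 ± 0.09 and was not called (adjusted p = 0.109), but passed in 3 of 22 alternatives, among them without DKO CT16 replicate 1 (-0.29, adjusted p = 0.0379) or 3 (-0.34, adjusted p = 0.0332). Called on this scale were 3.78% of all genes, 1.58% higher and 2.19% lower. At CT4 0 markers were called in edgeR, against 0.408% of all genes (0.290% higher, 0.118% lower), with Aldh1l1 at -0.26 ± 0.08 (adjusted p = 0.246) and Gjb6 at -0.29 ± 0.09 (adjusted p = 0.209).

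Relative to the panel, Gjb6 rose at CT16 in both genotypes, by 0.55 ± 0.08 in DKO (edgeR, adjusted p = 0.00114) and by 0.30 ± 0.08 in control (adjusted p = 0.0296). The DKO call was kept in all 22 alternatives. The control call was lost in 7, among them the removal of control CT4 replicate 1, 2 or 3 or of control CT16 replicate 1 or 3 (adjusted p = 0.0605 to 0.147). Sox9 fell by 0.37 ± 0.08 in DKO (adjusted p = 0.0241, lost in 4 of 22, 3 of them without DKO CT4 replicate 2 or 3 or DKO CT16 replicate 2) and by 0.41 ± 0.08 in control (adjusted p = 0.00382, kept in all 22). Slc7a10 fell by 0.26 ± 0.08 in control (adjusted p = 0.0494), lost in 16 of 22 and by the removal of any 1 library other than DKO CT16 replicate 1, 3 or 4 or control CT16 replicate 2. It was not called in DKO at -0.28 ± 0.08 (adjusted p = 0.113), but was without DKO CT16 replicate 3 (-0.33, adjusted p = 0.0249). Of all genes, 1.30% were called in DKO (0.982% higher, 0.313% lower) and 6.75% in control (5.85% higher, 0.905% lower). The genotype-by-time term again called 0 markers in edgeR, against 0.0118% of all genes, 0.00591% in each direction.

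The calls held in common by both scales were those of Aldh1l1 and Agt between genotypes at CT16, Gjb6 and Sox9 between times in DKO, and Sox9 and Slc7a10 between times in control. They are changes of a marker relative to the median ratio of the panel in the same libraries. Both scales use the same counts, and the panel factor relative to the TMM-scaled library size ran only from 0.912 to 1.07. A call on both scales is thus no independent check. On the panel scale the call of Agt was lost in 14 of 22 alternatives, of Slc7a10 in control in 16 and of Sox9 in DKO in 4. Those of Aldh1l1, of Gjb6 in DKO and of Sox9 in control were lost in 0. With the panel score as a covariate on the CPM scale, the calls of Agt, and of Sox9 and Slc7a10 in control, were lost. Whether these changes come from single genes or from the mix of tissue was not tested.

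**Figure D4:**
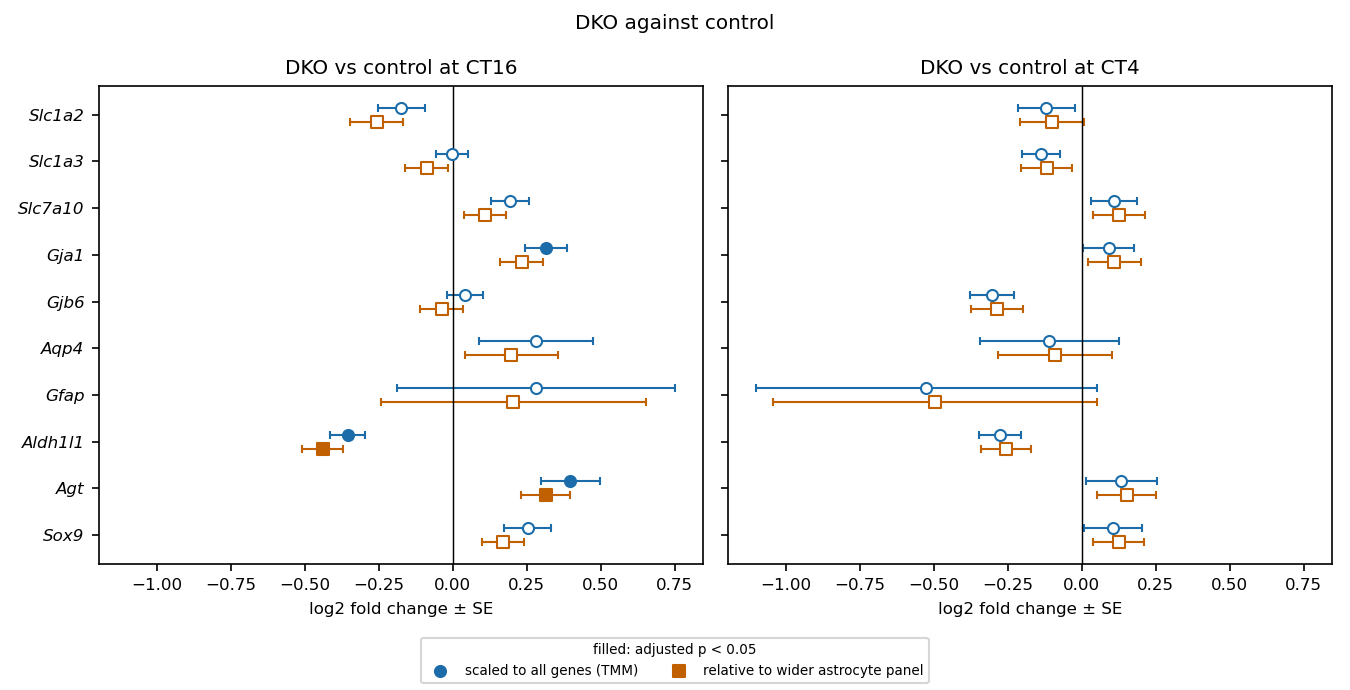
Log2 fold change ± standard error of DKO against control for each marker, at CT16 and at CT4, scaled to all genes (circles) and relative to the wider astrocyte panel (squares), filled where called. Aldh1l1 is at -0.35 and -0.44 at CT16 on these scales, and no marker is filled at CT4.

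**Figure D5:**
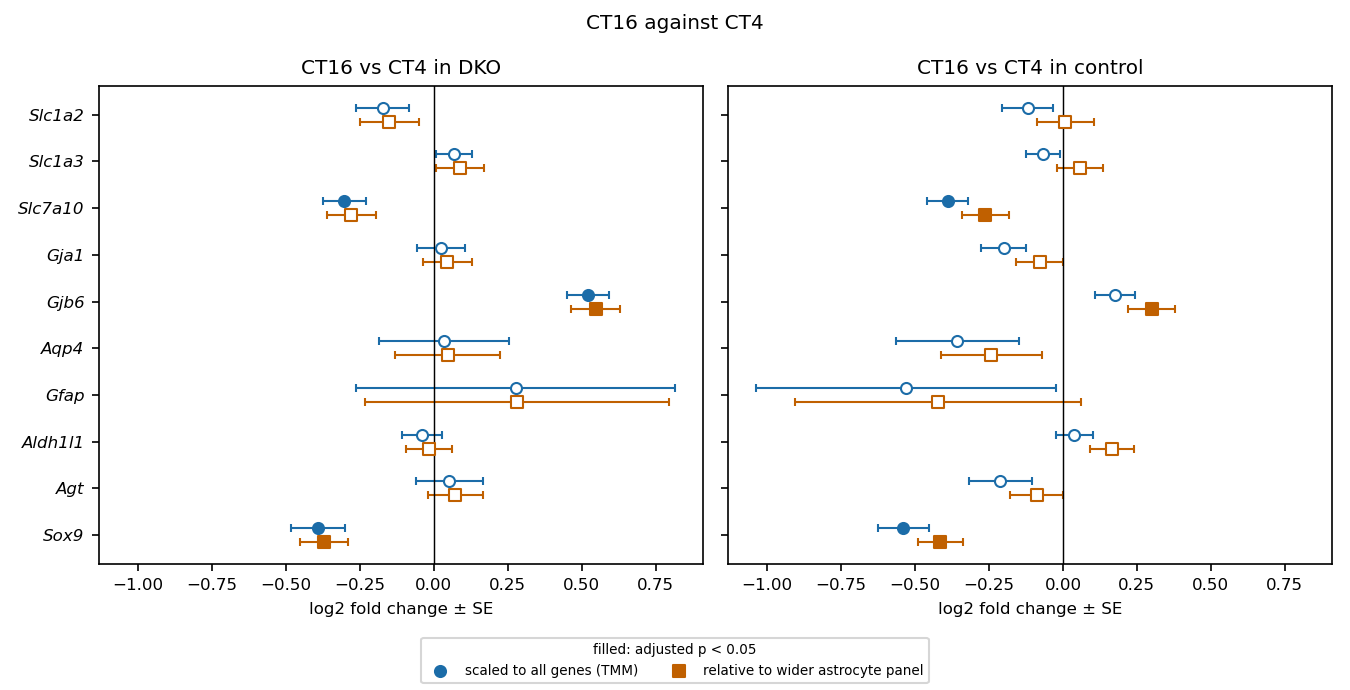
Log2 fold change ± standard error of CT16 against CT4 for each marker, in DKO and in control, on the same scales as the plot of genotype changes. Gjb6 is filled on both scales in DKO at 0.52 and 0.55, and Sox9 is filled on both scales in both genotypes.

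Single genes of the wider panel went in both directions between genotypes. At CT16, 8 of 40 rose and 3 fell in DKO, against 2.83% and 1.83% of all genes. Kcnj10, which encodes the potassium channel Kir4.1, rose by 0.70 ± 0.07 (edgeR, adjusted p = 1.38e-05), Pla2g7, a secreted phospholipase gene, by 1.14 ± 0.13 (adjusted p = 0.000254), and Cbs, an enzyme gene of transsulfuration, by 0.59 ± 0.07. Mertk, which encodes a phagocytic receptor, fell by 0.41 ± 0.08 (adjusted p = 0.00738). Etnppl, a phospholyase gene of phosphoethanolamine breakdown, and Sdc4, a syndecan gene, rose by 0.39 ± 0.06 and 0.33 ± 0.05. At CT4, Etnppl (0.60 ± 0.08) and Kcnj10 (0.38 ± 0.08) rose, Phkg1, a phosphorylase kinase subunit gene, fell by 0.49 ± 0.11, and 37 did not pass, where 1.28% of all genes were called.

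Between times, 4 of 40 panel genes rose and 1 fell in DKO, and 5 rose and 7 fell in control. Of all genes, 1.29% rose and 0.509% fell in DKO, and 2.13% rose and 2.08% fell in control. Mertk rose at CT16 by 0.59 ± 0.10 in DKO and 1.02 ± 0.09 in control (edgeR, adjusted p = 0.00360 and 1.87e-05). Sdc4 rose by 0.67 ± 0.06 in DKO and 0.58 ± 0.06 in control, and F3, which encodes tissue factor, by 0.48 ± 0.08 in DKO and 0.63 ± 0.08 in control. Glul, which encodes glutamine synthetase, rose by 0.36 ± 0.07 in DKO and 0.29 ± 0.07 in control. Tril fell by 0.41 ± 0.07 and Cldn10 by 0.44 ± 0.09 in control. Some microglia and endothelial genes were called in the same time comparisons, to be read against those shares: 0 of 15 microglia genes rose and 2 fell in DKO and 4 in control, and of 14 endothelial and mural genes 2 fell in DKO, while 1 rose and 3 fell in control. The summed CPM of the microglia list was 354 to 615 at CT16 and 489 to 552 at CT4 in DKO, and 362 to 420 at CT16 and 440 to 534 at CT4 in control. Their part in the astrocyte values was not tested.

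Genes that work with the markers were counted list by list, beside the 4.66% of all genes called between genotypes at CT16, 1.28% at CT4, and 1.80% in DKO and 4.21% in control between times. Of 15 genes of glutamate and GABA uptake and recycling, 0 were called between genotypes at CT16 (edgeR, adjusted p under 0.05) and Slc38a1, an amino acid carrier gene, fell by 0.23 ± 0.05 at CT4. Of 14 endfoot and dystrophin complex genes, Kcnj10 and Aqp9, an aquaglyceroporin gene (0.97 ± 0.26), rose at CT16, and of 12 folate genes Mthfd1 (0.21 ± 0.05) and the folate receptor gene Folr1 (1.34 ± 0.36) rose. Of 16 glial transcription factor genes, Id2 rose by 1.10 ± 0.10 and Hes5 fell by 0.96 ± 0.17 in DKO at CT16. At CT16 against CT4, Hes5 fell by 1.29 ± 0.19 in DKO, and in control Hes5 (-0.93 ± 0.18), Hes1 (-0.64 ± 0.13), Id2 and Sox2 fell. Of 19 intermediate filament and reactive astrocyte genes, Cp (0.57 ± 0.10) and C4b (1.86 ± 0.37) rose at CT16, and 17 did not pass. Of 10 renin-angiotensin genes tested and of 10 genes of serine and glycine supply, 0 were called between genotypes at either time.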

How the data were processed

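RNA of pooled SCN punches was sequenced in 15 libraries. The authors deposited raw read counts per gene, whole numbers that were not normalized, and STAR, featureCounts, DESeq2 and mm10 are listed in the submitters' processing notes. The annotation, strand setting and versions they used are not given there or in the labels. Exonic lengths in bases, another kind of value, stand in the deposited table per the file headers and were used for CPM per kilobase.

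The fits used edgeR 4.0.16 under R 4.3.3. The filterByExpr step kept 16910 of 24419 genes (3619 had no count). Factors were TMM, the model had 4 group means and 11 residual degrees of freedom, and the test was the robust quasi-likelihood test, with Benjamini-Hochberg adjustment. The standard error of a log2 fold change is its size over the square root of F, and log2 CPM used a prior count of 2. The second scale replaced TMM by the median of ratios over 40 astrocyte genes, in which Fabp7 was not included. Scores entered as covariates beside the group means. The labels do not tie punches to mice, so a p-value here reflects only the spread of the pools, which may be technical. No library pair agreed within sampling noise, so each counted as 1 replicate. The submitters' sample titles give replicate numbers. Same-numbered libraries deviated together weakly at most (correlation up to 0.138), so the numbers were not used to pair them in the main fit.

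The markers, the 19 lists (285 genes) and the settings were chosen with earlier results of these data known. All 10 markers are named in each comparison, with up to 6 called genes of smallest p from the panel and up to 3 from each other list. Mertk between genotypes at CT16 and Sox2 between times in control are named beyond these limits. Some results these rules would name are not reported here. Alternatives were DESeq2 1.42.0, factors by RLE or upper quartile, limma 3.58.1 voom with quality weights, no filter, a stricter filter (mean of at least 5 CPM), only the groups compared, a replicate block, score covariates, removal of 3 libraries (DKO CT16 replicates 3 and 4, control CT4 replicate 1) and each library left out. Added after seeing the data were an ependyma and tanycyte covariate, panel factors with a myelin covariate, the panel without called genes, and myelin slopes with each library left out. Steps were tested on simulated data. Promoters came from RefSeq (GRCm38.p6) for 8 of the 10 markers. Gene spans come from the exon coordinates deposited with the counts, whose summed length equals the deposited one. GENCODE M21 served only to find exons of other genes that overlap them. Figures used matplotlib 3.10.9.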

Additional observations from a re-analysis of the deposited data

How the results depend on the processing

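Of 2490 marker values recomputed under 28 alternatives on the CPM scale (27 for the genotype-by-time term) and 22 on the panel scale, 2307 kept their direction and side of the threshold, 79 lost a call, 33 gained one and 0 changed sign with a call on either side. The other 71 (34 on the CPM scale, 37 on the panel scale) changed sign without being called in either fit, as Gfap did at CT16 between genotypes. On the CPM scale the genotype comparison at CT4, with 0 markers called, gave 2 with DESeq2, 2 with limma voom, 2 with only the groups compared, 2 with the myelin covariate and 2 without the 3 libraries, in each case Aldh1l1 and Gjb6, and 1 (Gjb6) with the replicate block. Over all genes these fits called 584, 822, 828, 637, 606 and 104 in the same order, against 217 in the main fit. At CT16, with 3 called, only the groups compared, the panel score covariate and the removal of the 3 libraries each gave 1, Aldh1l1. Over all genes they called 368, 342 and 419 in that order, against 788 in the main fit. CT16 against CT4 in DKO, with 3 called, gave 1 (Gjb6) with only the groups compared and 1 with the neighbouring nuclei covariate, and in control, with 2 called, the panel score covariate gave 0. Over all genes these were 47 and 55 in DKO, against 304 in the main fit, and 124 in control, against 712. The genotype-by-time term, with 0 called, gave 1 (Gjb6) with limma voom and 1 without the 3 libraries. Those fits called 420 and 423 genes in all, against 2 in the main fit. On the panel scale the CT16 genotype count of 2 was 1 with the replicate block and 1 without the 3 libraries, the control time count of 3 was 1 without the 3 libraries and 1 with a geometric mean of panel ratios, and the DKO time count of 2 was 1 with factors from the other 9 markers. Over all genes the CT16 genotype fits called 431 and 330, against 639, and the control time fits 711 and 589, against 1142. The cause of these differences was not tested. Leaving out each library in turn gave 0 to 2 called markers for the genotype comparison at CT4, 1 to 4 at CT16, 1 to 4 for time in DKO, 2 to 3 for time in control and 0 for the interaction, and on the panel scale 0, 1 to 3, 1 to 3, 1 to 3 and 0 in that order. Over all genes the same removals called 16 to 328, 380 to 1318, 103 to 1461, 235 to 1057 and 1 to 298. On the panel scale they called 15 to 121, 276 to 2633, 69 to 971, 259 to 3259 and 1 to 85. Same-numbered libraries correlated at -0.184 to 0.138 in their deviations from group means. Between times in DKO the 3 same-numbered pairs, at 0.0503 to 0.1, lay above all other pairs, which reached 0.0413. Whether the numbers stand for anything shared was not tested. With the smallest marker count in a library at 1038 (Sox9), counting error is small beside the spread between pools, and 3 to 5 pools a group limit precision most for Gfap.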
